A study of Mus musculus with 6 samples.

Results

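The uninjured ganglion cell layer was described from 3 arrays, 1 for each noninjured eye, of the 6 arrays of a study on early responses to optic nerve injury in mice. Members were taken by title alone, as the arrays of noninjured eyes 1 to 3, and they gave an intensity for 18193 genes. The mice were male C57BL/6J animals with no transgene or drug named. Each eye was the uninjured partner of an eye whose optic nerve had been crushed with forceps for 10 sec, and it was taken at 6 hrs, so all 3 eyes came from animals that had undergone surgery on the opposite side. The labels give no age and no batch, and they do not say that the 3 eye numbers are 3 animals. The spread between eyes may therefore be biological or technical. About 6000 cells of the ganglion cell layer were captured per eye by laser from frozen sections, yielding about 60 ng of total RNA, which was amplified over repeated cRNA rounds before hybridization to an Affymetrix mouse expression array.

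The ganglion cell layer is the innermost cell layer of the retina. It holds the retinal ganglion cells (RGCs), whose axons form the optic nerve and carry the visual signal to the brain, and displaced amacrine cells, which are inhibitory interneurons. Astrocytes, microglia, capillaries and the endfeet of Muller cells, the radial glia of the retina, lie between these neurons. Rods and cones lie in the outer retina, beyond the bipolar, horizontal and most amacrine cells.

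Intensity is the brightness of a probe set on a linear scale as normalized across arrays, and each gene is given by its brightest probe set. A gene with a mean of 1000 or more over the 3 eyes is called bright here, a gene from 40 to under 1000 mid, and the rest below 40. Brightness also depends on how well a probe set binds and on how near it lies to the 3′ end, which repeated amplification favors. Where a gene is called brighter or dimmer than another, this is an order of probe set readings and not of transcript levels, and a mean below 40 is not absence of a transcript. Values with ± are the mean and SD over the 3 eyes (n = 3), and 3 values in a row are those of eyes 1, 2 and 3. Members of the lists are described with no test, since a single group was examined.

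Of the 18193 genes, 5872 (32.3%) were bright, 9255 (50.9%) were mid and 3066 (16.9%) were below 40. The median gene had a mean intensity of 341. The class was the same in every eye for 5493 of the bright genes, 8551 of the mid genes and 2705 of those below 40. Near the limits it was not, as for Cib4, with 33.5, 42.3 and 44.2, whose mean lay just inside the mid class, and Wfdc15b, with 25.7, 48.7 and 45.5, whose mean lay just outside it. Pop5, with 1149, 824 and 1027, lay just inside the bright class, and Lclat1, with 1145, 1021 and 832, just outside it. The class moved with the number of probe sets, which was not equal between genes. Of the 9183 genes with 1 probe set 17.2% were bright, against 58.6% of the 4315 genes with 3 or more. Of the bright genes, 1421 also had a probe set below 40. With the median over a gene's probe sets in place of the brightest, 19.7% of all genes were bright.

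**Figure D1:**
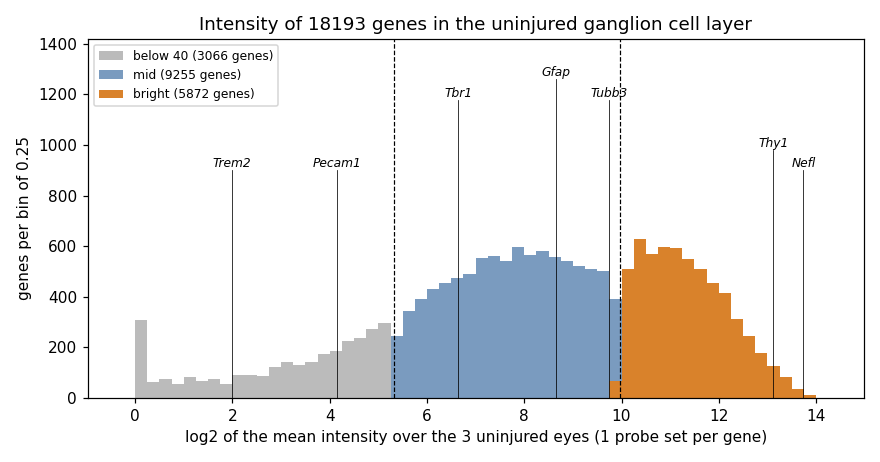
Histogram of the log2 mean intensity of 18193 genes over the 3 uninjured eyes, in bins of 0.25, colored by class, with dashed lines at 40 and 1000. The bright class holds 5872 genes, among them Nefl and Thy1, whereas Pecam1 and Trem2 lie in the class below 40.

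The 3 arrays resembled each other. The median intensity over all probe sets was 142.6 in eye 1, 142.3 in eye 2 and 141.1 in eye 3, and the number of genes at 1000 or more was 5941, 5854 and 5738. Among the 15127 genes at 40 or more the log2 intensities had a Pearson correlation across genes of 0.991 between eyes 1 and 2, 0.986 between eyes 1 and 3, and 0.986 between eyes 2 and 3. Genes are not independent replicates, so these are descriptions. The SD over the 3 eyes had a median of 0.15 on the log2 scale. The range between the highest and lowest eye exceeded 1 on the log2 scale, a factor above 2, for 434 genes (2.87%). Eye 3 stood somewhat apart. Its ratio of 3′ to 5′ probe sets was 6.65 for Actb and 5.13 for Gapdh, against 8.53 and 5.93 in eye 1 and 8.80 and 6.60 in eye 2. The part of these ratios in the differences between eyes was not tested.

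Promoter sequence was set beside the classes, since the rule for members did not use it. RefSeq promoters of GRCm38.p6, from 250 bases before to 50 after the transcription start, were matched to 14368 of the genes. The observed over expected ratio of CpG dinucleotides had a median of 0.79 in bright genes, 0.62 in mid genes and 0.30 in genes below 40. It was 0.6 or more in 77.5%, 51.5% and 24.0% of them. The letters TATAAA, searched on the gene's strand from 45 to 15 bases before the start, were found in 1.56% of bright, 2.88% of mid and 5.66% of below-40 genes, and in 2.89% of all measured genes with a promoter. The letters GGGCGG, on either strand, were found in 72.2%, 55.6% and 32.6% respectively, and in 57.5% of all measured genes with a promoter. A gene with several promoters counted with the mean of its ratios and with a match in any of them. Counted per promoter, over all 32851 promoters of the build, the shares were 2.14% for TATAAA and 35.7% for GGGCGG, which cannot be set against shares counted per gene. Promoters of high and of low CpG ratio are shown as examples, with TATAAA in capitals where it was found. Rpl13a, a ribosomal protein gene among the 20 brightest (chr7:45128696-45128995, minus strand), had a ratio of 1.00, and Pou4f1, a bright RGC transcription factor (chr14:104467950-104468249, minus strand), had 1.24. Cryba1, a lens crystallin in the mid class (chr11:77725244-77725543, minus strand), had 0.18 and a match starting 23 bases before the start. Its class is that of its mean alone, since its intensities were 2229, 164 and 25.3, and its ratio lay under the lower quartile of the mid class, 0.33. Bright genes could have low ratios too, such as 0.35 for Stmn3, 0.19 for Opn4 and 0.14 for Crx.
Rpl13a: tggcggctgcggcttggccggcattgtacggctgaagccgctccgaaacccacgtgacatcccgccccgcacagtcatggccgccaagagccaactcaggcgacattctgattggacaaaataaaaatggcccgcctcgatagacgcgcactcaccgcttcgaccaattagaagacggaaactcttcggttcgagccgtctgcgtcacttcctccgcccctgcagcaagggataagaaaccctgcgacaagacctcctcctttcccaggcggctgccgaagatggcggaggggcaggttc
Pou4f1: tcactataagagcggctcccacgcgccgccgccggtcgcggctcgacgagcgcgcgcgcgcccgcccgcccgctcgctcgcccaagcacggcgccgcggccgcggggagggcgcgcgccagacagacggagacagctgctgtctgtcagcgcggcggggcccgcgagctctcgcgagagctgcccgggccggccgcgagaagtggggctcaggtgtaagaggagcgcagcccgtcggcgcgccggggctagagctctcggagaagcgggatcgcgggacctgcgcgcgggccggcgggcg
Cryba1: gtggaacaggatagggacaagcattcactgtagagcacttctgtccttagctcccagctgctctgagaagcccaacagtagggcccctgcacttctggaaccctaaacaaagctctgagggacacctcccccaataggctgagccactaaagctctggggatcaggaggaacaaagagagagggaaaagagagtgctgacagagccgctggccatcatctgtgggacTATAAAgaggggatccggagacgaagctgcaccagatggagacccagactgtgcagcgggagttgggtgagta

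Markers of RGCs were mostly bright. Of the 24 RGC genes measured, 20 were bright, 3 were mid and 1 was below 40. With the median over probe sets 16 were bright. A log2 range over 1 was seen in 0 of the 23 genes at 40 or more and in 2.87% of all such genes, a share that would put less than 1 gene among 23. Nefl, the light neurofilament chain of RGC axons, had intensities of 13974, 13771 and 13332 and was the brightest of the list. Its partners Nefm and Nefh had 7526, 7438 and 7120.3 and 6273, 5872 and 5704. The neurofilament genes varied little, and their eyes differed by no more than 0.14 on the log2 scale. Thy1, the surface glycoprotein long used to identify RGCs, had 8602, 8917 and 9148, and Sncg, gamma-synuclein, had 3606, 3309.96 and 3989.9. Sncb, the other synuclein measured, was bright too, with 4902, 5353 and 4444. Slc17a6, the vesicular glutamate transporter of RGCs, had 4945, 5634 and 4994. All these genes were bright in every eye.

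Transcription factors and binding proteins of RGCs spanned the scale. Pou4f1, which maintains the RGC program, had 6476, 7329.5 and 6952, and Isl1, its partner in RGC differentiation, had 4942, 5449 and 5039.6. The promoter of Pou4f1 is the most CpG-rich of the 3 printed. Rbpms, an RNA-binding protein that marks most RGCs, had 1811, 2023 and 2393, highest in eye 3, while its other 3 probe sets had means of 535 to 847, in the mid class. Eomes, a factor of melanopsin RGCs, had 1758, 1845 and 2289.9, and Opn4, melanopsin itself, had 1574, 1517 and 1870.2. Both were likewise highest in eye 3. Tubb3, neuronal beta-tubulin, was the brightest of the mid members with 851, 752 and 984. Tbr1 and Pou4f3, factors of RGC subsets, had 106, 112 and 83.0 and 60.2, 56.8 and 54.0. Chrnb3, a nicotinic receptor subunit, had 6.47, 4.30 and 15.1 and lay below 40, whereas Chrna6, another subunit of the same receptor family, had 3145, 3423 and 3599. Pou4f2, Spp1 and Rbpms2 were not matched.

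Markers of amacrine cells were all at 40 or more. Of 18 measured genes 12 were bright and 6 were mid, and with the median over probe sets 7 were bright. Gad1, which makes the transmitter GABA, had 9524, 9971 and 8892, and Slc32a1, which loads GABA into vesicles, had 6069, 6722 and 5607. The other 3 probe sets of Slc32a1 had means of 503, 36.9 and 1. The amacrine transcription factors Tfap2a and Tfap2b had 4561, 4725 and 4363 and 5054, 5766 and 4636. Gad2, the second GABA-producing enzyme, had 1888, 2505 and 1738 and was highest in eye 2. Chat, Slc5a7 and Slc18a3, which make, take up and package acetylcholine in starburst amacrine cells, were mid, with 150.3, 142 and 174 for Chat, 157, 177 and 156 for Slc5a7 and 137, 131 and 117 for Slc18a3. Megf10, a surface receptor of starburst cells, had 761, 1103 and 592. Of the 18 genes 13 were highest in eye 2 and 15 were lowest in eye 3, against 5155 and 6433 of all 15127 genes at 40 or more. The median log2 difference of eye 2 minus eye 3 was 0.21, against 0.02 over all genes at 40 or more. The number of amacrine genes with a log2 range over 1 was 0, near the background share of 2.87%.

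Genes of neurons of the inner nuclear layer were bright in part. Bright shares were 41.7% for bipolar and 33.3% for horizontal cell genes, against 32.3% of all genes. By the median over probe sets these shares were 25% and 16.7%, against 19.7% of all genes. Of 12 bipolar cell genes 5 were bright, 6 were mid and 1, Bhlhe23, was below 40. Prkca, the protein kinase of rod bipolar cells, had 6162, 6650.1 and 5514, and Cabp5, which binds calcium in rod bipolar and some cone bipolar cells, had 2572, 3596 and 2171, highest in eye 2. Trpm1, the transduction channel of ON bipolar cells, had 172, 101 and 118. Of the 11 genes at 40 or more, 7 were highest in eye 2 and 7 were lowest in eye 3. Of all 15127 such genes, 5155 were highest in eye 2 and 6433 lowest in eye 3. Prkca and Gng13 are also used by cells other than bipolar cells. Of 6 horizontal cell genes 2 were bright, or 1 with the median over probe sets. Calb1, a calcium buffer that some RGCs and amacrine cells also use, had 5920.1, 6311 and 6056, whereas Onecut1 and Onecut2, transcription factors of horizontal cells, had 178, 187 and 225 and 422, 360.1 and 283.

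Photoreceptor genes were bright in a layer that normally holds no photoreceptor cell bodies, and their median log2 range between eyes was 1.01, against 0.18 for the RGC genes and 0.28 for all genes at 40 or more. Of 18 rod and pan-photoreceptor genes 16 were bright, 2 were mid and 0 were below 40. Sag, rod arrestin, had 11419.5, 10295 and 8487, and Gnat1, the rod transducin subunit, had 10394, 7945 and 5312. Nrl and Crx, the transcription factors of rod and photoreceptor identity, had 7256, 4517 and 3495 and 6107, 3616 and 2694. Of all 15127 genes at 40 or more, 4718 were highest in eye 1 and 6433 lowest in eye 3. Every one of the 18 rod and pan-photoreceptor genes was highest in eye 1, and 17 were lowest in eye 3. Eye 2 lay between the others for 17 of the 18, and Gngt1, a transducin subunit with 8779, 5832 and 6474, was the exception.

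Differences between eyes were seen at high and low intensity, but they were smaller for the brightest rod gene than for the dimmest. Pdc and Pde6b, phosducin and a subunit of the rod phosphodiesterase, had 8393, 7337 and 6505 and 9141, 6879 and 5350.4. Cnga1, the rod cyclic nucleotide-gated channel, had 3808, 2327 and 1196, and Rom1, a disc rim protein, had 3485, 2323 and 1239.9. Rdh12, a retinol dehydrogenase of the inner segment, had 1632, 643 and 476. Prph2, the partner of Rom1 in the disc rim, had 79.9, 49.95 and 18.3. The median log2 difference of eye 1 minus eye 3 was 1.01 over the 18 genes, against 0.03 over all genes at 40 or more, and 9 of the 18 had a log2 range over 1. The log2 range was 0.43 for Sag, the brightest, and 2.12 for Prph2, the dimmest.

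Cone genes had the same order of eyes in part. Of 11 measured genes 5 were bright and 6 were mid. Of these 11, 7 were highest in eye 1 and 8 lowest in eye 3, against 4718 and 6433 of all 15127 genes at 40 or more. Pde6h and Gnat2, a phosphodiesterase subunit and the transducin of cones, had 4682, 3369 and 2049.7 and 2159, 1617 and 906. Opn1sw, the short-wavelength opsin, had 1712, 1667 and 738, and Opn1mw, the middle-wavelength opsin, had 532, 148 and 131. Opn1sw was alike in eyes 1 and 2, whereas Opn1mw was alike in eyes 2 and 3. Another probe set of Opn1sw differed by only 0.24 on the log2 scale between eyes 1 and 3, against 1.21 for the brightest. Cngb3, a cone channel subunit, had 806, 864 and 869 and Thrb, the thyroid hormone receptor that directs opsin choice, had 380.02, 382 and 349. Neither followed the order of the rod genes. The median log2 difference of eye 1 minus eye 3 was 0.86. In captured tissue, more cells of a type and more RNA per cell cannot be told apart. Lens crystallins were likewise highest in eye 1, and the part of other captured tissue in these differences was not tested.

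Photoreceptor promoters are shown because the letters TAATCC, which the homeodomain factor Crx is known to bind, were found in them more often than elsewhere. TAATCC was searched on both strands, where the other strand reads GGATTA, and matches are in capitals. Crx itself (chr7:15879906-15880205, minus strand) held 2 matches, starting 94 and 21 bases before the start, and Aipl1, a chaperone of the photoreceptor phosphodiesterase (chr11:72037460-72037759, minus strand), held 2, starting 53 bases before and 10 after it.
Crx: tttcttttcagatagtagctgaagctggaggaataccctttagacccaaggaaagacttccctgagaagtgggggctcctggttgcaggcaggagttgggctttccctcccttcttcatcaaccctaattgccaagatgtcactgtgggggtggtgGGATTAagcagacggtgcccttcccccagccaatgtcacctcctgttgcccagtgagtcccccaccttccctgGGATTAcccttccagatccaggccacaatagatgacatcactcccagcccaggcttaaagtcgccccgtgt
Aipl1: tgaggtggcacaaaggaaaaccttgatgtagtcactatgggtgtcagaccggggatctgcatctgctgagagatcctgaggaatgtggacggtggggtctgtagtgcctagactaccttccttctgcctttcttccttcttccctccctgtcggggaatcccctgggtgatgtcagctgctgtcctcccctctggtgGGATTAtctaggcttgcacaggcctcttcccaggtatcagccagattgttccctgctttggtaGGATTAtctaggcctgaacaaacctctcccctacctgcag

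A match was found in 6 of 12 rod and pan-photoreceptor genes with a promoter, in 2 of 7 cone genes and in 1 of 13 RGC genes. The background was 7.30% of the measured genes with a promoter. Counted per promoter it was 7.06% of all promoters, which cannot be set against the shares per gene. By class the share of genes was nearly level, at 7.19% in bright, 7.43% in mid and 7.13% in below-40 genes. Among the variable genes that were highest in eye 1 and lowest in eye 3, 31 of 148 (20.9%) had a match, against 16 of 186 (8.60%) of the other variable genes. Without the genes of the rod and cone lists it was 26 of 136 (19.1%). Those lists do not hold every photoreceptor gene, so others may remain among the 136. The variable genes were grouped by their intensities, and the shares are a description. A match is not a bound site.

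**Figure D2:**
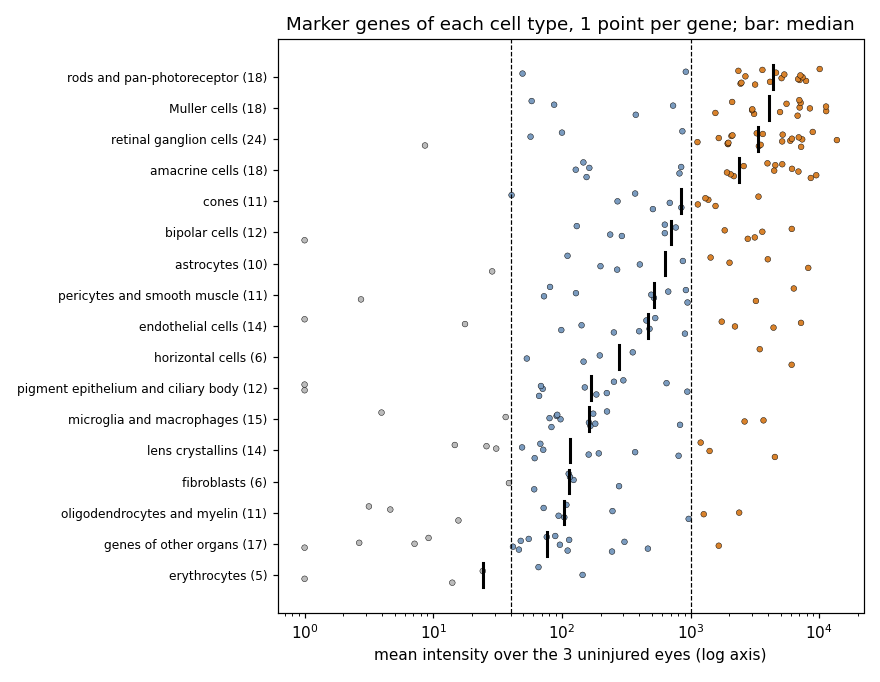
Mean intensity over the 3 uninjured eyes of each marker gene, 1 point per gene, on a log axis, by cell type with the number measured in parentheses, colored by class as in the histogram, with dashed lines at 40 and 1000 and bars at the list medians. Rod, Muller, RGC and amacrine lists have medians above 1000, and the genes of other organs a median of 76.2.

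Muller cell genes were bright for 14 of 18, with 4 mid. Clu, the secreted chaperone clusterin, had 11943, 11653 and 10312, and Glul, the glutamine synthetase that clears glutamate, had 11478, 11349.9 and 10994. Rlbp1, a retinoid carrier, had 7249, 7478 and 6766 and Kcnj10, the potassium channel of the endfeet, had 5744, 5588 and 5348. Aqp4, the water channel of the endfeet, had 2897, 3947 and 2488 and Car2, carbonic anhydrase, had 5305, 5942 and 3605. The first 4 varied little, whereas Aqp4 and Car2 were highest in eye 2 and lowest in eye 3. Hes1 and Sox9, transcription factors of glia, had only 75.1, 88.5 and 97.2 and 67.1, 48.9 and 58.4. Of the 18 genes 16 were higher in eye 1 than in eye 3, with a median log2 difference of 0.13. Among all 15127 genes at 40 or more, 8308 were higher in eye 1 than in eye 3, with a median log2 difference of 0.03.

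Of 10 astrocyte genes 4 were bright, 5 were mid and 1, Agt, was below 40. Aldoc and S100b, a glycolytic enzyme and a calcium-binding protein of astrocytes, had 8453, 8353 and 7799.99 and 3972, 3611 and 4351. Gfap, the glial intermediate filament, was mid with 379, 326 and 503. Gja1, the gap junction protein connexin 43, had 3388, 824 and 1805. It was the one gene of the list with a log2 range over 1, and 4 of its 5 other probe sets also had their lowest value in eye 2.

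Immune and vascular genes were mostly mid, as were 50.9% of all genes. Bright shares were 13.3% for microglia and macrophages, 28.6% for endothelial cells and 18.2% for pericytes and smooth muscle, against 32.3% of all genes. By the median over probe sets these shares were 6.67%, 28.6% and 0%, against 19.7% of all genes. Of 15 microglia and macrophage genes 2 were bright, 11 were mid and 2, Itgam and Trem2, were below 40. Ctss, a lysosomal protease, had 2844, 4621 and 3584 and Csf1r, the receptor that microglia need to survive, had 2207, 2607 and 3065. The other probe sets of Csf1r had means of 423 and 67.5, so its bright class rested on 1 of its 3 probe sets. C1qa, C1qb and C1qc, the chains of complement C1q, had 140.3, 163 and 196, 617, 711 and 1153 and 166, 172 and 207 in that order. Cx3cr1, P2ry12 and Tmem119, which mark resident microglia, had means of 97.5 ± 19.3, 90.8 ± 10.7 and 175 ± 19.4. Of the 13 genes at 40 or more, 10 were lowest in eye 1, against 3758 of all 15127 such genes.

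Of 14 endothelial genes 4 were bright, 8 were mid and 2, Pecam1 and Tie1, were below 40. Slc2a1, the glucose transporter of the blood-retina barrier and of other cells, had 7981, 6439 and 7204. Kdr and Flt1, receptors of VEGF, had 2069, 2382 and 2180.1 and 4159, 4294 and 4766. Vwf, von Willebrand factor, and Cldn5, a tight junction protein, had 452, 347 and 793 and 335, 280.2 and 579, each with a log2 range over 1 and the highest value in eye 3. Of 11 pericyte and smooth muscle genes 2 were bright, Rgs5 with 6499.9, 5885 and 6621 and Acta2 with 3132, 3239 and 3273.

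Genes of myelin, pigment epithelium, erythrocytes and fibroblasts were mostly mid or below 40, as were most of all genes, of which 32.3% were bright. Of 11 oligodendrocyte and myelin genes 2 were bright (18.2%), or 0 with the median over probe sets, and 3 were below 40. Mbp, myelin basic protein, had 2114, 2922 and 2114, while its other 7 probe sets lay at or under 429, and Olig2, the lineage factor, had 2.32, 1.30 and 5.86. Of 12 genes of the pigment epithelium and ciliary body 0 were bright and 2, Rpe65 and Mlana, had the value 1 in every eye. Ttr, transthyretin, had 508, 493 and 948. Of the 10 genes of this list at 40 or more, 8 were highest in eye 3, against 5254 of all 15127 such genes. Of 9 erythrocyte genes listed only 5 were measured, and Hbb-b1, Hbb-bs and Hbb-bt were among those not matched. Of the 5, 2 were mid and 3 below 40, with Hba-a2 at 163, 168 and 103. Of 6 fibroblast genes 0 were bright, with Col1a2 the brightest at 312, 207 and 314.

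A list of 17 genes of other organs gave the background that a probe set can show where its gene has little use. Of them 1 was bright, 12 were mid and 4 were below 40, with a median intensity of 76.2. Alb, serum albumin made by the liver, had 219.6, 248 and 266, and Ckm, muscle creatine kinase, had 442, 419 and 535. Ins2, preproinsulin, was the bright gene, with 1587, 1654 and 1720.5, from a single probe set of the _x_at type, whose probes may also bind other transcripts. Without Ins2 the means of this list reached 465 ± 61.3, that of Ckm. The Y-linked genes Eif2s3y, Kdm5d and Uty had 2112, 1874 and 2220.3, 635, 628 and 552 and 353, 357 and 323, as in male animals, and Xist had 147, 157 and 151.

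Lens crystallins had the largest median log2 range between eyes of the lists, 1.17. These structural proteins of the lens include small heat shock proteins that retinal cells also make. Of 14 measured genes 3 were bright, 8 were mid and 3 were below 40. Of the 11 at 40 or more, 10 were highest in eye 1, against 4718 of all 15127 such genes. Crygs, a gamma-crystallin, had 3226, 269 and 95.1, and Cryba1, a beta-crystallin whose promoter is printed above, had 2229, 164 and 25.3. Their log2 ranges, 5.08 and 6.46, were the largest of all genes with a mean of 200 or more. Cryab, alphaB-crystallin, had 7369, 3214 and 2965, or 308 with the median over its probe sets, and Crybb2 had 2095, 1053 and 1063, whereas Crybb1 had 450.5, 318 and 343 and Crygn had 69.5, 61.6 and 72.6. Eye 1 stood apart for Crygs, Cryba1 and Cryba4, the last with 425, 98.0 and 57.1, but much less for Crybb1 and not for Crygn. Without eye 1, the values of eyes 2 and 3 put Crygs and Cryba1 in the mid class.

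**Figure D3:**
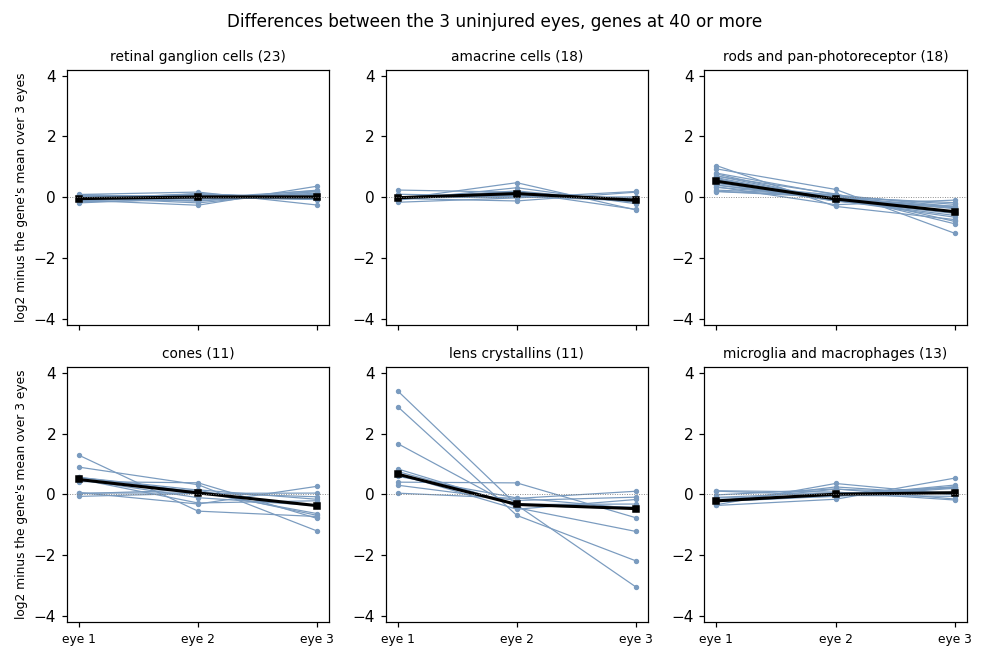
Log2 intensity of each marker gene at 40 or more in each uninjured eye, minus that gene's mean over the 3 eyes (floor of 16), for 6 lists; thin lines join the values of a gene, and squares are list medians. Rod, cone and lens genes are high in eye 1, with median differences of eye 1 minus eye 3 of 1.01, 0.86 and 1.17, and RGC genes lie near 0.

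Families that every cell uses were mostly bright. Of 31 hnRNP and SR splicing factors 30 were bright, and Hnrnpl, with 204, 245 and 231, was mid. Of 81 subunits of oxidative phosphorylation 67 were bright, 13 were mid and 1, the testis form Cox7b2, was below 40. Uqcrb, a subunit of complex III, had 14982, 14877 and 14455 and Cox5a, of complex IV, had 11164, 10892 and 11647. Tissue-specific forms, such as the muscle subunits Cox6a2 and Cox8b, had 73.6, 53.0 and 47.7 and 57.1, 42.8 and 51.3. Atp5g1 was the one gene of this list with a log2 range over 1, with 657, 500.01 and 1081.

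Of 47 cytosolic ribosomal protein genes 38 were bright, 6 were mid and 3 were below 40, and their median log2 range of 0.11 was the narrowest among the lists. Rpl13a had 14683, 14708 and 14838, Rps29 had 14498, 14155 and 14513 and Rps18 had 13092, 13584 and 13700.4. Rplp0, a stalk protein, had 2755, 1865 and 3686 and varied most among the bright ones. Rps16, a core subunit, had 1, 1 and 6.86 from its single probe set. Ribosomal protein genes share sequence with many processed copies, so the level of a given gene is uncertain. Of 39 proteasome subunits 27 were bright. Psmc2, an ATPase of the cap, had 11116, 11504 and 10727, while Psmb8 and Psmb9, the subunits of the immunoproteasome, had 85.1, 90.2 and 82.7 and 16.5, 10.5 and 1.

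Energy and stress genes were bright for the most part. Of 22 glycolysis and lactate genes 16 were bright. Pgk1 and Aldoa, enzymes of the pathway, had 12674, 12886 and 11815 and 11156, 10333 and 11087. Hk2, a hexokinase that photoreceptors use, had 2065, 1085 and 704, and Slc16a1, a lactate carrier, had 1499.8, 1160.1 and 548. These were the only members of that list with a log2 range over 1, and both had the order of eyes of the rod genes. Of 20 heat shock proteins and chaperones 16 were bright, with Hspa8, the constitutive Hsp70, at 13358, 13175 and 13186. Hspa1a and Hspa1b, the inducible Hsp70 genes, had 1587, 953 and 846 and 3324, 1890.3 and 1564, both highest in eye 1. These 2 genes are nearly identical in sequence and may share signal. Of 21 metallothionein and antioxidant genes 14 were bright, with Sod1 at 11818, 11668 and 12287 and Mt1 at 7342, 7577 and 6952, whereas Hmox1, the inducible heme oxygenase, had 1 in every eye.

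**Figure D4:**
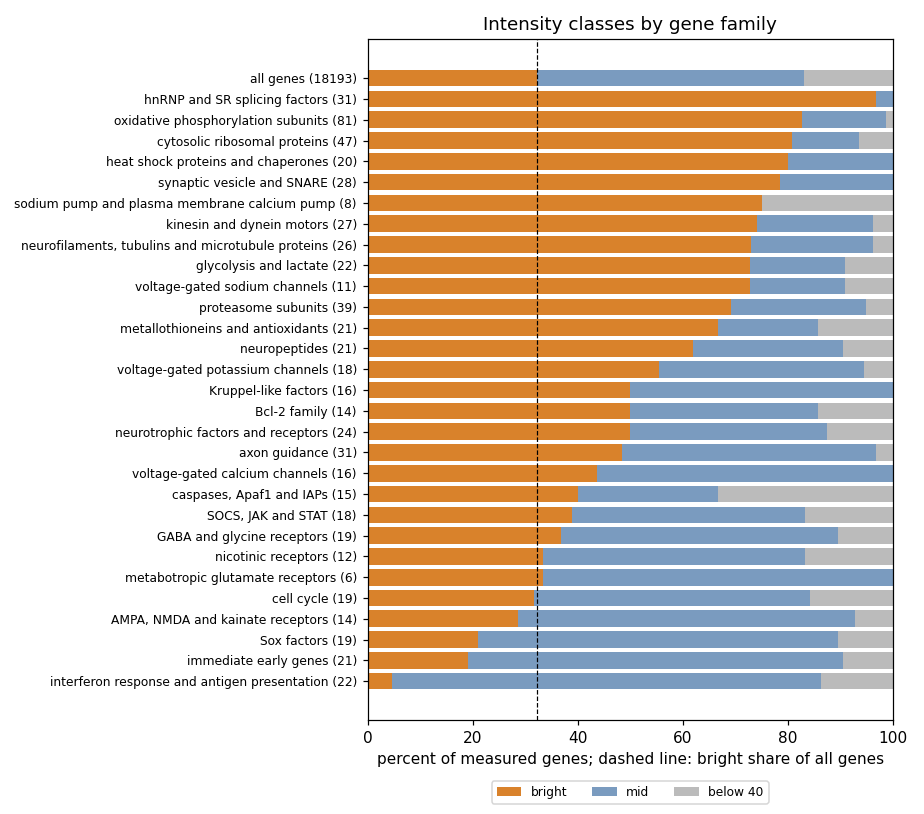
Percent of measured genes that were bright, mid or below 40 in each family of 6 or more measured genes (number in parentheses) and over all genes, with a dashed line at the bright share of all genes. Splicing factors have the largest bright share, 96.8%, and the interferon list the smallest, 4.55%.

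The axonal cytoskeleton and the transport machinery were bright. Of 26 neurofilament, tubulin and microtubule genes 19 were bright. Stmn3, a stathmin that binds free tubulin, had 14361, 15699 and 15475, the highest mean of all genes, and Tuba1a, an alpha-tubulin, had 14723, 14937 and 14623. Mapt, the axonal protein tau, had 6417, 6593 and 5848, and Map1b had 1039, 777 and 618. Of 27 kinesin and dynein motor genes 20 were bright. Kif5c and Kif5a, heavy chains of the axonal motor kinesin-1, had 9027, 9442 and 8207 and 6137, 6492 and 7134, Dync1h1, the dynein heavy chain, had 5773, 5077 and 5462, and Kif1a, which moves synaptic vesicle precursors, had 298, 267 and 381. Kif20a, a mitotic kinesin, had 5.74, 1.45 and 1.

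Of 28 synaptic vesicle and SNARE genes 22 were bright and 6 were mid. Snap25 and Syt1, a SNARE protein and the calcium sensor of release, had 11062, 10723 and 10894 and 10197, 10624 and 9178. Rab3a, a vesicle GTPase, had 11156, 11717 and 11280.5. Cplx4, a complexin of ribbon synapses, had 2927, 1570.1 and 693 and was the one gene of the list with a log2 range over 1, whereas Cplx3, its relative, had 7296, 7863 and 6842. Cplx4 had the order of eyes of the rod genes. Slc17a7, the vesicular glutamate transporter of photoreceptors and bipolar cells, was mid with 229, 254 and 197.

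Transmitter receptors had bright shares near the 32.3% of all genes when each gene was given by its brightest probe set. They were 28.6% for AMPA, NMDA and kainate subunits, 36.8% for GABA and glycine subunits, and 33.3% for nicotinic subunits and metabotropic glutamate receptors. With the median over probe sets, 2 genes of the first list, 4 of the second, 1 nicotinic and 1 metabotropic gene were bright. Only the GABA and glycine share, 21.1%, was then above the 19.7% of all genes, and the nicotinic share was 8.33%. Of 14 AMPA, NMDA and kainate receptor subunits 4 were bright, 9 were mid and 1 was below 40. Gria2, the AMPA subunit that limits calcium entry, had 4390.03, 4698 and 4625, and Grin2b, an NMDA subunit, had 294, 509 and 277. Of 19 GABA and glycine receptor subunits 7 were bright, with Glrb, the beta subunit of glycine receptors, at 7350.04, 6896 and 7701 and Glra1 at 992, 1091 and 569.5. Gabrr1, a subunit of the GABA receptors of bipolar cells, had 649, 977 and 466 and a log2 range of 1.07. Of the 17 genes at 40 or more in this list 11 were highest in eye 2, against 5155 of all 15127 such genes. Of 12 nicotinic subunits 4 were bright, with Chrna4 at 4016, 4707 and 3798 and Chrnb2 at 1377, 1377 and 1360.2. Of 6 metabotropic glutamate receptors 2 were bright, Grm7 with 2329, 3208 and 2946 and Grm4 with 1504, 1623 and 1815.

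Voltage-gated channels, which carry the action potential and shape release, were bright in part. Of 11 sodium channel genes 8 were bright, or 3 with the median over probe sets. Scn1a and Scn8a, pore subunits of central neurons, had 3732, 3985 and 4395 and 3551, 3056 and 3222, whereas Scn10a, of sensory neurons, had 7.91, 12.5 and 15.5. Of 18 potassium channel genes 10 were bright, with Kcna2 at 5182, 5735 and 4889.6 and Kcnc1 at 4744, 4988 and 4812. Of 16 calcium channel genes 7 were bright and 0 were below 40. With the median over probe sets 2 were bright (12.5%), under the 19.7% of all genes. Cacna1s, the muscle pore subunit, was the dimmest with 57.8, 57.4 and 59.4. Of 8 genes of the sodium pump and the plasma membrane calcium pump 6 were bright, with Atp1b1, the beta subunit of the sodium pump, at 9938, 10145 and 9327, and the other 2, Atp1a4 and Atp2b4, were below 40.

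Of 21 neuropeptide genes 13 were bright. Chgb and Scg2, granins of secretory vesicles, had 9189, 10089.9 and 7968 and 7552, 7752 and 7219.5, and Tac1, the precursor of substance P, had 8076, 7621 and 7419.9. Cartpt, a peptide that certain RGCs make, had 7225, 7037 and 7398. Penk, proenkephalin, had 6483, 2697 and 4890.3, lowest in eye 2, and Crh, corticotropin-releasing hormone, had 2438, 2484 and 4433, highest in eye 3. Penk and Sst were the genes of this list with a log2 range over 1. Sst, somatostatin, was mid, with 36.5, 75.1 and 66.3.

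Of 24 neurotrophic factors and receptors 12 were bright, 9 were mid and 3 were below 40. With the median over probe sets only 2 were bright (8.33%), under the 19.7% of all genes. Among receptors, Ret, the receptor of the GDNF family, had 3192, 3693 and 3519, Ntrk2, the receptor of BDNF, had 2925, 1961 and 2359, and Il6st, the shared gp130 receptor, had 3129.8, 3160.1 and 3313. Among ligands Bdnf had 914, 725 and 808, Gdnf had 31.9, 46.0 and 27.8 and Fgf2 had 3.60, 4.11 and 3.08. Of 31 axon guidance genes 15 were bright and 15 were mid, but with the median over probe sets only 3 were bright (9.68%). Ephb1, the ephrin receptor of uncrossed RGC axons, had 3389, 3671 and 3766 and Dcc, the netrin receptor, had 994, 1314 and 1082, whereas Slit3 was below 40 with 25.2, 24.2 and 29.3. Efnb2, an ephrin, had 1760.2, 756 and 811, highest in eye 1.

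Genes of cell death were divided. Of 14 Bcl-2 family genes measured 7 were bright, 5 were mid and 2, Pmaip1 and Bik, were below 40. Mcl1 and Bcl2l1, which protect cells, had 5659.8, 5602 and 4937 and 3079, 2949.6 and 3270.2, and Hrk, a BH3-only gene of neurons, had 1591, 1453 and 1748. Bbc3, another BH3-only gene, had 71.8, 85.5 and 69.5. Of 15 genes for caspases, Apaf1 and inhibitors of apoptosis 6 were bright and 5 were below 40. Xiap, a caspase inhibitor, had 4745, 4642 and 4297 and Casp9, the initiator caspase that Apaf1 activates, had 309, 397 and 269. Casp14, a caspase of skin, had 2503, 2469 and 2811 from a probe set of the same _x_at type as that of Ins2, while its other probe set lay below 40 in every eye.

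Of 18 SOCS, JAK and STAT genes 7 were bright, with Stat3 at 1547, 1586 and 1618 and Socs7 at 7046, 7009.9 and 6397, whereas Socs3 had 145, 158 and 195 and Socs1 had 3.66, 1 and 5.52. Of 21 immediate early genes 4 were bright, 15 were mid and 2, Atf3 and Npas4, were below 40. Jund had 5565, 5970.2 and 5009, Egr1 had 1568, 1900.4 and 1630.3 and Fos had 1172, 971 and 889.6, while Jun had 206, 299 and 171. Atf3, a factor that injured neurons induce, had 15.1, 6.98 and 1. Of 16 Kruppel-like factors 8 were bright and 0 were below 40, with Klf9 at 11147, 12053 and 9002 and Klf4 at 300.3, 286 and 289.5. With the median over probe sets 3 of the Kruppel-like factors were bright (18.75%), against 19.7% of all genes. Of 19 Sox factors 4 were bright (21.1%, against 32.3% of all genes), or 1 with the median over probe sets (5.26%, against 19.7%). Sox11 and Sox4, both factors of axon growth, were mid with 497, 434 and 520.5 and 614, 639 and 724.

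Of 22 interferon response and antigen presentation genes 1, Irf3 with 2190.1, 1235 and 2073, was bright. Oas1a, Mx1 and Mx2 were below 40. Of 19 cell cycle genes 6 were bright (31.6%, against 32.3% of all genes), or 2 with the median over probe sets (10.5%, against 19.7%). Pcna, the sliding clamp of replication, had 4061, 4009 and 3365 and Cdkn1b, an inhibitor of cycling, had 2428, 2349.5 and 2373. Mki67, which marks dividing cells, had 70.2, 37.6 and 60.8. Ccna2, a cyclin of S phase, had 1984, 1083 and 786 and was the one gene of the list with a log2 range over 1. Across all 48 lists, 33 had a bright share above the 32.3% of all genes. With the median over probe sets 28 had a share above that of all genes, 19.7%.

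The 434 variable genes, those with a log2 range over 1 and a mean of 40 or more, did not fall evenly among the eyes. Eye 1 was highest and eye 3 lowest for 193 of them (44.5%), whereas that order held for 18.8% of all genes at 40 or more. Of these 193 genes 14 were on the rod and cone lists. Eye 2 was highest and eye 3 lowest for 110, and eye 1 was highest and eye 2 lowest for 52. The remaining 79 genes had the other 3 orders. Of the 434, 142 had another probe set at 40 or more, and the median of the others pointed the same way in 116 and by over 1 in 23.

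Other genes among the 20 with the largest ranges at a mean of 200 or more were of various kinds. Fmod, the matrix proteoglycan fibromodulin, had 1655, 219.7 and 749, Ogn, osteoglycin, had 937, 168 and 437 and Col18a1, a collagen of basement membranes, had 1001, 188 and 667. Aldh1a1, a retinaldehyde dehydrogenase, had 5554, 995 and 1651, and Gpx3, a secreted glutathione peroxidase, had 2791, 698 and 1868. These 5 genes shared the order of Gja1, with eye 1 highest and eye 2 lowest. All 6 probe sets of Fmod had it, whereas the second probe set of Ogn had 164, 144 and 162 and that of Col18a1 had 218, 172 and 179. Aldh1a1 and Gpx3 have a single probe set each. Col4a3, another basement membrane collagen, had 1154, 645 and 216 and Slc26a2, a sulfate carrier, had 867, 482 and 154, with eye 3 lowest. The second probe set of Col4a3 had 109.8, 115 and 113, so its range was not shared either. The other probe sets of Slc26a2 had the same order of eyes with smaller ranges, 279, 172 and 153 and 393, 242 and 192.

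Ranges that rested on a single probe set, like those of Ogn, Col18a1 and Col4a3, were also seen with eye 2 highest. S100a10, a calcium-binding protein, had 2579.6, 15539 and 2933, with eye 2 far above the others, while its other probe sets had 425, 495 and 454 and 169, 176 and 208. Zc2hc1a had 3109, 13779 and 3129.6, while its other probe sets had 2863, 2942 and 3809.5 and 1990, 2073 and 2431. The high value of eye 2 was thus seen in a single probe set of each gene, and that of S100a10 is of the _x_at type.

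**Figure D5:**
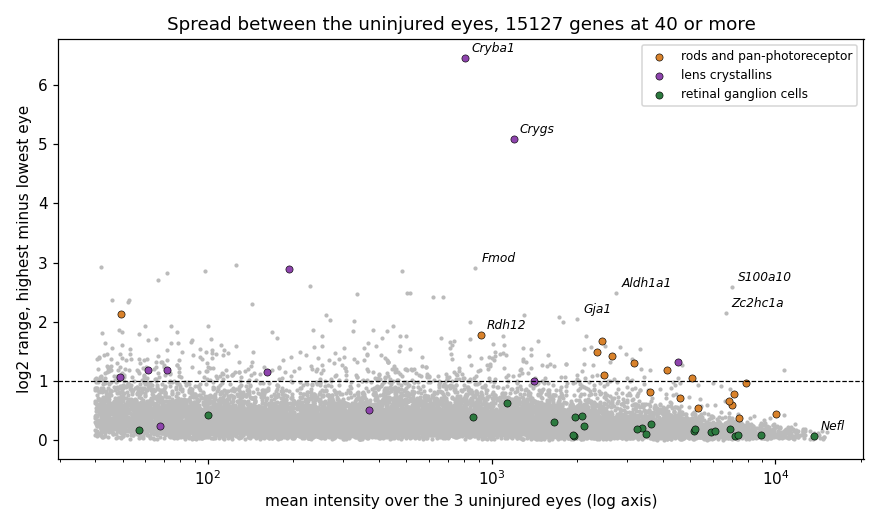
Log2 range between the highest and lowest uninjured eye against mean intensity (log axis) for 15127 genes at 40 or more, with rod, lens and RGC lists colored and a dashed line at a range of 1. RGC genes lie under the line, rod genes on either side of it, and Cryba1 and Crygs far above it at 6.46 and 5.08.

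At the other end, bright genes could be nearly equal in the 3 eyes. Pja1, a ubiquitin ligase, had 6537, 6534 and 6537, Pwp1, a WD-repeat protein, had 1587, 1586 and 1585, and Rps26, a ribosomal protein, had 4042, 4052 and 4044. Of the 20 brightest genes, the largest log2 range was that of Hmgn1, at 0.15. They included Stmn3, Tuba1a and Nefl of the axonal cytoskeleton, the ribosomal protein genes Rpl13a, Rps29, Rps28 and Rps18, the mitochondrial genes Uqcrb and ND5, and the chaperone Hspa8. Ndn, the imprinted growth suppressor necdin, had 13650.1, 13639.5 and 13522, and Hint1, a nucleotide-binding protein, had 14718, 14703 and 15173. Ywhab, a 14-3-3 protein, and Tpt1, a translationally controlled protein, had means of 14108 ± 596 and 13681 ± 579.6.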

How the data were processed

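Linear intensities were deposited. The authors had calculated these intensities in dChip from perfect match and mismatch probes (PM/MM model), after normalizing all arrays to an invariant set. The arrays were Affymetrix Mu430 v2.0, hybridized with amplified RNA of laser-captured cells. Columns of the 3 crush arrays were not used, although the authors' normalization included them. Of 45101 probe sets, 64 AFFX controls were dropped. GEO's platform annotation, updated through RefSeq gene IDs, gave 34945 probe sets a single symbol, 932 several and 9160 none here. The last groups were not named. Each gene was represented by its brightest probe set. Values under 16 were set to 16 before log2. The file holds no detection calls, and the value 1 occurred 2083 to 2217 times per array. The precision is limited by the number of arrays, 3, which have no sequencing depth. Python 3.11.15, numpy 2.4.6, pandas 2.3.3 and matplotlib 3.10.9 were used, and the steps were tested on simulated data. No test between groups was made.

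Genes were named by a rule covering the 20 brightest, the 20 most variable with a mean of 200 or more, the 10 least variable bright genes and, of each list, all members of short lists and the brightest, most variable and dimmest of long ones. Genes outside this rule that are given here were chosen after their values were seen, as were those printed of the genes it gave. The 48 lists hold 969 genes, of which 894 were measured. Members and lists were chosen with earlier results of these data known. Promoters came from RefSeq, GRCm38.p6. Alternatives covered the limits, floor, probe set choice, scaling, summary and eyes.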

Additional observations from a re-analysis of the deposited data

How the results depend on the processing

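No paired analysis was possible because a single group was described and no result comes from a test. With a limit of 2000 in place of 1000 there were 3599 bright genes, and with the median over a gene's probe sets 3581, against 5872. With a low limit of 20 or 80, 2010 or 4603 genes lay under it, against 3066, and with 20 the number with a log2 range over 1 was 657, against 434. Leaving out eye 1, 2 or 3 gave 208, 262 or 118 such genes, and a range over 2 values is narrower in each case. By pair, 119 genes differed by over 1 between eyes 1 and 2, 261 between eyes 1 and 3 and 209 between eyes 2 and 3. Leaving out an eye gave a median log2 SD of 0.10 to 0.14, against 0.15. The other counts, and the number of lists with a bright share above that of all genes, stayed within 1.5 times their value. Eye 1 minus eye 3 kept its sign under every alternative run for the rod, cone and lens lists (0.89 to 1.01, 0.75 to 1.03 and 0.84 to 1.31), as did eye 2 minus eye 3 for the amacrine list (0.17 to 0.21). These list differences and the order of eyes among variable genes were added after seeing the data. Of 38 named genes, the mean moved by over 1 SD for 17 with the median over probe sets, for 9 of 37 without _x_at and _s_at probe sets, and for 1 with quantile normalization. Of the bright ones among these 38 genes, Csf1r (423), Slc32a1 (270), Rbpms (717), Cryab (308), Mbp (139) and S100a10 (458) were mid with the median over probe sets, and Rbpms (847), Gja1 (453), Mbp (164) and S100a10 (458) were mid and Casp14 (28.6) below 40 without _x_at and _s_at probe sets. Low signals limit what can be ordered, since 7071 to 7219 probe sets were set to the floor on each array.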

Other observations

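Genes that share the first letters of their symbol were counted as a further view of families, in a grouping chosen after values were seen. Of the 84 such groups with at least 20 genes, the largest bright shares were those of Rpl (20 of 24 genes), Eif, translation initiation factors (36 of 47), and Ube, ubiquitin-conjugating enzymes and relatives (27 of 37). Dnajc cochaperones had 18 of 27 and Vps genes, of vacuolar sorting, 23 of 35. At the low end 0 of 38 olfactory receptors (Olfr), 0 of 31 vomeronasal receptors (Vmn), 0 of 20 beta-defensins (Defb), 0 of 26 C-type lectins (Clec) and 0 of 22 Spata genes were bright. Of these the mid class held 22, 13, 6, 14 and 16. Cytochromes P450 and other Cyp genes had 5 of 72 bright, keratins and other Krt genes 4 of 48, and interleukins with their receptors (Il) 4 of 73. Eye-to-eye ranges in these groups were not tested.

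By chromosome, the bright share was 37.9% of 617 genes on X and 25.1% of 1413 genes on chromosome 7, and it lay between these on the remaining autosomes. Genes highest in eye 2 and lowest in eye 3 included Car8, a carbonic anhydrase relative, with 993, 1534 and 501, Id2, an inhibitor of helix-loop-helix factors, with 484, 888 and 336, and Kcne2, a potassium channel subunit, with 844, 1007 and 329.6. Another probe set of Id2 differed by 0.25 on the log2 scale between eyes 2 and 3, against 1.40 for the brightest. Imp4, a nucleolar protein, was highest in eye 3 with 824, 913 and 2641, while its other probe sets had 647, 643 and 814 and 324, 325 and 247. Krt18, a keratin, had 1608, 511 and 404 and Ptgds, prostaglandin D synthase, had 3009.8, 889.5 and 2573. These genes were chosen after their values were seen.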
